A study of Mus musculus with 6 samples.

Results

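The 9 genes described here are 4 members of the Hoxa cluster (Hoxa5, Hoxa7, Hoxa9 and Hoxa10), 4 members of the Hoxb cluster (Hoxb2, Hoxb3, Hoxb4 and Hoxb5) and Meis1, whose protein binds DNA beside Hox proteins. They were chosen by gene symbol among the 31253 features of the count tables, and all 9 symbols were found, each once. Pbx2 and Pbx3, which encode Hox partners of another kind, are given beside them. The samples are 3 Txnip-KO and 3 WT mouse bone marrows, flushed from bone, enriched and sorted by flow cytometry before droplet sequencing of the 3' ends of transcripts. Txnip-KO is a knockout of the gene for thioredoxin-interacting protein, an arrestin-family regulator of glucose uptake and thioredoxin, and WT is the wild type. The sorted population, the deleted part of Txnip, the strain, the age and the sex are not stated in the sources used here. Nor is it stated that the 3 samples per genotype are different animals. The p-values therefore reflect the spread among the samples alone, which could be technical.

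Hox genes encode homeodomain transcription factors that pattern the body axis of the embryo and are used again in blood formation. In mouse marrow the Hoxa and Hoxb clusters are most active in stem and early progenitor cells and are shut down as cells mature. Hoxa9 and Meis1 support stem cell renewal, and they drive leukaemia when they stay on together. Meis and Pbx proteins belong to the TALE class of homeodomain factors, which bind next to Hox proteins and sharpen their choice of DNA site.

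On mouse build GRCm38, the Hoxa genes lie on chromosome 6 on the minus strand: Hoxa5 at 52201754 to 52204587, Hoxa7 at 52214491 to 52221854, Hoxa9 at 52223100 to 52231089 and Hoxa10 at 52231197 to 52240854. The Hoxb genes lie on chromosome 11 on the plus strand, in the order Hoxb5 (96303336 to 96306121), Hoxb4 (96318267 to 96321638), Hoxb3 (96323326 to 96347930) and Hoxb2 (96350525 to 96354012). Meis1 lies on the minus strand of chromosome 11, far from the cluster, at 18879817 to 19018985. The stretches below are from GENCODE M21 coding transcripts of 4 of the 9 genes and are shown because they tell their 2 kinds of homeodomain apart. Each is the coding strand of 42 bases for homeodomain positions 42 to 55, in the helix that enters the major groove of DNA, and the capitals mark the codon of position 50, which bears on the choice of DNA site.
Hoxa5: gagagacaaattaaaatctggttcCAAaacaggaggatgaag
Hoxa10: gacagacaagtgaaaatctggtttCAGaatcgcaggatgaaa
Hoxb2: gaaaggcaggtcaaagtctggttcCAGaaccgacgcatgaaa
Meis1: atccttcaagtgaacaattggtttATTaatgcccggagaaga
The 3 Hox genes shown carry a glutamine codon there, and Meis1 carries an isoleucine codon. Of the 42 bases, 33 in Hoxa5, 32 in Hoxb2 and 25 in Meis1 were the same as in Hoxa10.

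Some of these genes share exon bases with other annotated genes, and the sources used here do not say whether reads were counted by strand. Hoxb3 shares 2250 exon bases with Hoxb3os on the opposite strand, Hoxb2 shares 953 with the same antisense gene, Hoxa7 shares 586 with Hoxaas3, Hoxb5 shares 100 with Hoxb5os, and Meis1 shares 896 with Gm16140. Their counts are uncertain to that extent. Of the 9 genes, 6 have promoters in the RefSeq table (7 promoters of 300 bases around a start, GRCm38.p6). None of the 7 holds the Meis motif TGACAG, which 19.2% of all 32851 promoters hold on either strand, or the Pbx-Hox motif TGATTNAT, which 3.22% hold. Nor does any hold the homeodomain core TAATTA (5.29% of all promoters) or the E-box CACGTG (7.15%).

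After filtering, the Txnip-KO samples kept 6023 to 7827 cells with 54150321 to 69359565 UMIs (unique molecular identifiers, 1 per captured transcript), against 6190 to 7020 cells with 64185402 to 71355508 UMIs in WT. Among the kept barcodes, 321 also occurred in another sample. Txnip had 585, 666 and 28 UMIs in Txnip-KO 1, 2 and 3, against 19607, 14903 and 18717 in WT 1, 2 and 3 (log2 fold change -5.34, SE 1.11). Txnip-KO 3 thus stands apart from the other Txnip-KO samples, and results that rest on it are given without it where that ends a call. Cells were sorted into cell types by marker gates: a cell had to hold UMIs of a defining gene and of a minimum number of further markers. The gates took no Hox, Meis or Pbx gene as a marker. Of 41513 kept cells, 26638 (64.2%) fell in exactly 1 of 17 gates, and 14 gates had at least 20 cells in every sample and were compared. Among the 10 leading genes of each of these gates, markers of its own type outnumbered those of any other type, except in the B cell gate, where each had 3. The gates were set on markers from the same lists, so this count is no independent check of their names.

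In WT marrow, 7 of the 9 genes were highest in the HSC gate, which asks for the stem cell factor Hlf and at least 2 other stem cell markers. Levels are compared between gates here as CPM, the counts of a gene scaled to the same total of UMIs in every gate and sample, as mean ± SD over the 3 WT samples, and neighbours were tested with edgeR's quasi-likelihood test with the sample as a block. Hoxa9 stood at 112 ± 11.9 CPM in HSC, 88.9 ± 8.83 in lymphoid-primed progenitors (adjusted p = 0.184) and 80.0 ± 2.37 in early B-lineage progenitors. Granulocyte-monocyte progenitors (GMP) had 37.7 ± 0.851 CPM (adjusted p = 7.04e-15 against HSC, in a comparison where 52.6% of 12041 features differed). Plasmacytoid dendritic cells had 32.9 CPM and erythroid cells 32.4 (adjusted p = 0.702 between them), and megakaryocyte cells had 32.0. NK cells were lowest with 0.336 CPM.

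Hoxa7, the neighbour of Hoxa9, was not highest in HSC. It reached 69.3 ± 3.83 CPM in early B-lineage progenitors and 68.0 ± 6.24 in plasmacytoid dendritic cells, which did not differ beyond their spread (adjusted p = 0.697), and 59.8 ± 6.09 in HSC. The early B-lineage gate was above HSC by 0.33 on the log2 scale (adjusted p = 0.000900) and the plasmacytoid dendritic gate by 0.28 (adjusted p = 0.00265). Of all features in this comparison, 42.8% and 62.4% differed from HSC in those gates. Lymphoid-primed progenitors (59.7 CPM) and GMP (48.6) came next, and megakaryocyte cells had 22.4.

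Hoxa5 and Hoxa10 had lower levels with different reach. Hoxa5 stood at 10.2 ± 1.29 CPM in HSC, 9.21 ± 0.668 in early B-lineage and 6.96 ± 0.716 in lymphoid-primed progenitors, and these did not differ beyond their spread (adjusted p against HSC 0.960 and 0.169). Hoxa10 stood at 25.5 ± 3.54 CPM in HSC and 8.90 ± 1.8 in megakaryocyte cells, the next gate (adjusted p = 1.00e-08, where 43.8% of features differed from HSC). Lymphoid-primed progenitors had 5.91 ± 1.49 CPM of Hoxa10 and every other compared gate 2.11 or less.

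Among the Hoxb genes, Hoxb2 and Hoxb5 were seen mainly in the stem cell gate. Hoxb2 had 7.44 ± 1.64 CPM in HSC, 1.8 ± 0.641 in megakaryocyte cells (adjusted p = 0.000212) and at most 0.743 in the other compared gates. Hoxb5, which marks long-term stem cells in mouse marrow, had 3.19 ± 1.94 CPM in HSC and 0.650 ± 0.199 in megakaryocyte cells. Hoxb4, which expands stem cells when overexpressed, reached much further. It had 20.8 ± 1.09 CPM in HSC, 20.5 ± 2.95 in basophil or mast cells, 16 ± 3.60 in conventional dendritic cells, 15 ± 4.2 in monocytes and 14.4 ± 1.41 in NK cells. None of those 4 gates differed from HSC beyond the spread (adjusted p 0.146 to 0.803), and the lowest level was 3.98 ± 6.89 CPM in T cells. Hoxb3 stood at 6.88 ± 1.86 CPM in HSC, 3.30 ± 0.456 in basophil or mast cells (adjusted p = 0.0507) and 3.14 ± 0.971 in NK cells.

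Meis1 was shared by stem cells and the megakaryocyte lineage. It had 221 ± 8.94 CPM in megakaryocyte cells and 217 ± 12.5 in HSC (adjusted p = 0.275). Erythroid cells had 62.3 ± 3.59 CPM (adjusted p = 6.18e-42 against HSC, where 59% of features differed), early B-lineage 61.7 ± 2.63 and lymphoid-primed progenitors 57.9 ± 3.86. No Meis1 UMI was seen in the 148 T cell-gate cells of both genotypes, which allows a share of up to 2.03% of such cells with a UMI. Intervals and limits of this kind cover counting error only.

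**Figure D1:**
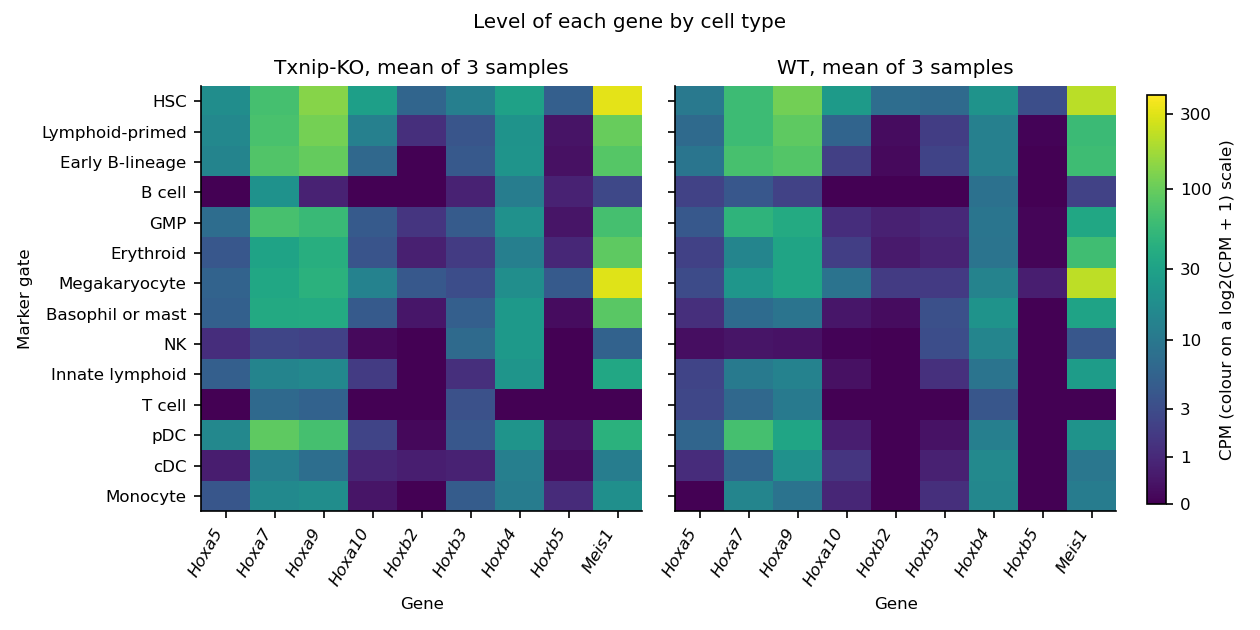
Level of each gene (columns) in each marker gate (rows) as mean CPM of 3 samples on a log2(CPM + 1) colour scale, with Txnip-KO in the left panel and WT in the right. In WT, Hoxb4 spreads over every gate, Hoxb2 and Hoxb5 are brightest in the HSC row, and Meis1 is at 221 and 217 CPM in megakaryocyte cells and HSC.

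Over the 14 WT gates, the genes most like Meis1 by Pearson correlation of log2(CPM + 10) were Inka1 (0.962), 5033406O09Rik (0.951) and Cngb1 (0.934). For the summed Hoxa genes these were Egfl7 (0.937), a secreted protein first known from endothelium, Tspan3 (0.914) and Grsf1 (0.909). For the summed Hoxb genes they were Nfic (0.857), Armc3 (0.805) and Tmbim4 (0.799). Among the 9 genes themselves, Hoxb2 and Hoxb5 were most alike (0.992) and Hoxa5 and Hoxb4 were far apart (0.109). These are descriptions over 14 gates of the same 3 libraries.

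Summed over all kept cells, every one of the 9 genes stood higher in each Txnip-KO sample than in each WT sample, as did 29.4% of all features tested. Of the 9, 8 passed the test (edgeR quasi-likelihood test, Benjamini-Hochberg adjusted p under 0.05). Of all 14648 features tested, 40.8% passed in either direction and 21.5% were higher, with a median log2 fold change of 0.04, against 0.83 over the 9 genes. From here on, levels compared between genotypes are CPM scaled by the trimmed mean of M-values (TMM), a log2 fold change is that of Txnip-KO over WT, and adjusted p-values are from the edgeR test over all features of a gate. In such a sum, more cells of a type and more RNA per cell cannot be told apart.

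Meis1 had 167, 154 and 113 CPM in Txnip-KO 1, 2 and 3, against 92.3, 83.6 and 80.3 in WT 1, 2 and 3. The Txnip-KO samples differed more among themselves, with Txnip-KO 3 nearest to WT, and the groups did not overlap. The means were 145 ± 28.2 and 85.4 ± 6.17 CPM, a 1.69-fold difference (log2 0.76, SE 0.14, adjusted p = 0.00443). Hoxb5 had 1.70, 1.41 and 1.42 CPM in Txnip-KO, against 0.650, 0.332 and 0.289 in WT, from 99, 99 and 88 UMIs against 41, 23 and 19. It had the largest fold of the 9 genes (3.56, log2 1.83, SE 0.31, adjusted p = 0.00256) and the fewest UMIs.

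Hoxa5 had 9.85, 8.69 and 9.46 CPM in Txnip-KO, against 5.20, 4.79 and 4.92 in WT (log2 0.91, SE 0.10, adjusted p = 0.000656). Hoxb3 (1.19), Hoxb2 (0.94), Hoxa10 (0.83), Hoxb4 (0.52) and Hoxa9 (0.34) rose as well, with adjusted p of 0.000916 to 0.00474. Hoxa7 had 48.9, 52.0 and 41.9 CPM in Txnip-KO, against 40.1, 40.6 and 41.4 in WT. Its difference of 0.23 missed the threshold (adjusted p = 0.0560) and passed it without Txnip-KO 3 (0.31, adjusted p = 0.00714).

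The HSC gate held 10.4%, 9.66% and 7.24% of kept cells in Txnip-KO, against 6.35%, 5.93% and 4.72% in WT, so the cells in which most of these genes are highest were more frequent in Txnip-KO. With the same number of cells drawn from each gate in every sample, 8 of the 9 genes were again called. Meis1 was then at 0.42, Hoxa10 at 0.43, Hoxb5 at 1.16 and Hoxa9 at 0.22, all called by edgeR, and Hoxa7 was called at 0.35 (adjusted p = 0.00208). Hoxb2 was at -0.22 in this setting and was not called (adjusted p = 0.552).

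Within the HSC gate, 4 of the 9 genes were higher in Txnip-KO and none was lower by edgeR's test, where 30.3% of 11166 features passed in either direction and 14.6% were higher. The 4 were Meis1, Hoxa5, Hoxb4 and Hoxb3. Meis1 had 340.3, 306 and 269 CPM in Txnip-KO, against 232, 226 and 214 in WT. Every Txnip-KO sample was above every WT sample, as in 21.7% of all features in this gate, and the means of 305 ± 35.7 and 224 ± 9.17 CPM differed 1.36-fold (log2 0.44, SE 0.09, adjusted p = 0.000764). The call held in all 18 alternatives run, with values of 0.35 to 0.76, the highest with every cell thinned to 1000 UMIs, which gives all cells the same weight.

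Hoxa5 had 19.1, 15.5 and 17.8 CPM in Txnip-KO, against 11.2, 8.97 and 11.7 in WT. The groups lay apart (log2 0.73, SE 0.17, adjusted p = 0.00198), though with cells thinned to 1000 UMIs the value was 0.47 and not called. In studies of human progenitors, HOXA5 favours myeloid over erythroid fate. Hoxb4 had 31.4, 28.1 and 27.6 CPM in Txnip-KO, against 22.5, 20.4 and 21.7 in WT (log2 0.44, SE 0.13, adjusted p = 0.0109). Hoxb3, the 3' neighbour of Hoxb4 in the cluster, had 14.7, 11 and 10.0 CPM in Txnip-KO, against 7.92, 8.36 and 5.00 in WT (log2 0.73, SE 0.21, adjusted p = 0.0113). Both Hoxb genes had every Txnip-KO sample above every WT sample. The Hoxb4 call ended in 7 of 18 alternatives, with values of 0.27 (adjusted p = 0.185, cells called G1) to 0.63 (adjusted p = 0.202, thinned cells). The others were DESeq2's Wald test, gates set at 4000 UMIs, the gate's largest cluster and leaving out Txnip-KO 1 or WT 2. The Hoxb3 call ended in 4 of 17, those without Txnip-KO 1 (0.54, adjusted p = 0.104) or WT 3 (0.57, adjusted p = 0.0631), with 1 more marker (adjusted p = 0.103) and with gates set at 4000 UMIs (adjusted p = 0.152).

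The other 5 genes overlapped between genotypes in HSC. Hoxa9 had 142, 119.6 and 123 CPM in Txnip-KO, against 106, 109 and 133 in WT (log2 0.15, SE 0.10, adjusted p = 0.248). Hoxa7 was at 0.09 (SE 0.10) and Hoxa10 at 0.09 (SE 0.13). Hoxb2 had 4.98, 5.65 and 6.95 CPM in Txnip-KO, against 7.31, 6.11 and 9.73 in WT, the only negative value (log2 -0.39, SE 0.24, adjusted p = 0.229). Hoxb5 had 5.12, 5.22 and 4.70 CPM in Txnip-KO, against 5.48, 1.63 and 2.78 in WT, so that WT 1 alone reached the Txnip-KO samples. Its value was 0.59 (SE 0.33, adjusted p = 0.183), and 1.23 (adjusted p = 0.0218) without WT 1.

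**Figure D2:**
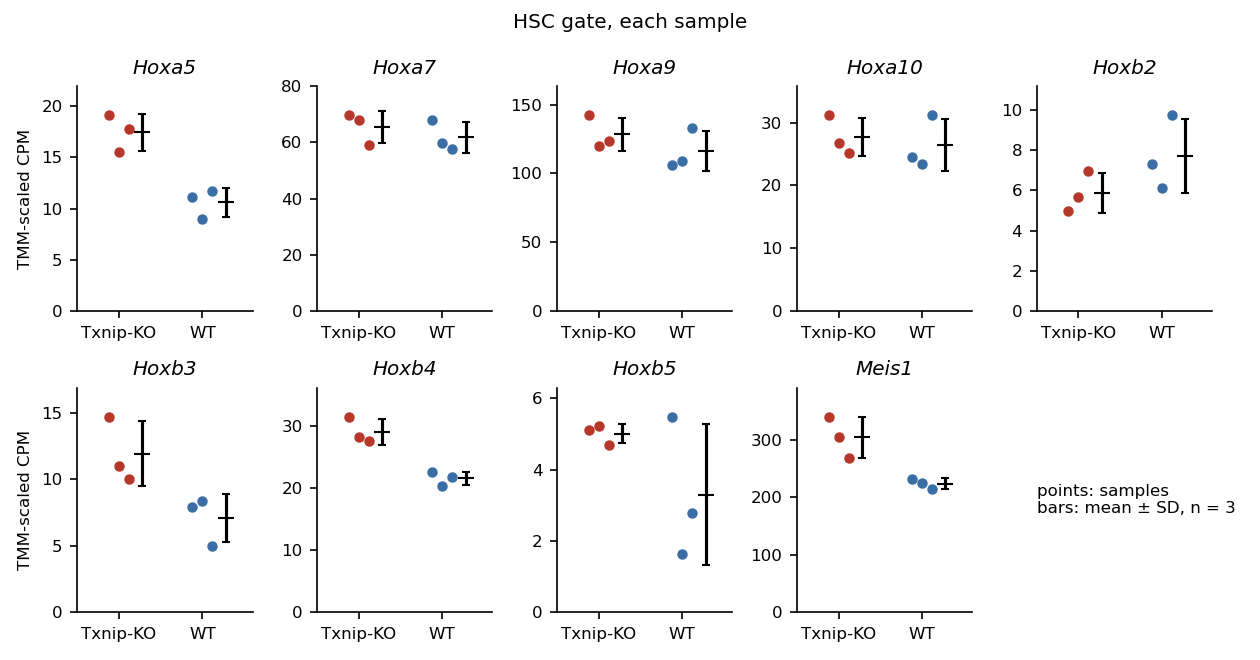
TMM-scaled CPM of the 9 genes in the HSC gate, 1 panel per gene, with each sample as a point (Txnip-KO left, WT right) and the mean with its SD (n = 3) beside the points. The points of Meis1, Hoxa5, Hoxb3 and Hoxb4 do not overlap between genotypes, and those of Hoxa7, Hoxa9, Hoxa10, Hoxb2 and Hoxb5 do.

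Cells of the HSC gate also differed in other ways between genotypes. Cells called S or G2M made up 17.1%, 22.0% and 22.9% in Txnip-KO, against 39.2%, 34.1% and 24.6% in WT, and the median UMIs per cell was 7764 to 9540 against 10814 to 11321. In the gate, 40.1% of cells held only the minimum number of markers, and cluster 0 of an unsupervised grouping held 79.8% to 86.9% of its Txnip-KO and 76.7% to 79.6% of its WT cells. Among cells called G1, Meis1, Hoxa5 and Hoxb3 kept their calls in HSC. The part of depth in these results was not tested beyond the thinned values.

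With each cell thinned to 1000 UMIs, the share of HSC-gate cells with a Meis1 UMI was 31.4%, 28.4% and 27.6% in Txnip-KO, against 18.6%, 19.2% and 17.1% in WT. These ranges lay apart, and the two-sided exact permutation test gave p = 0.1, the smallest that 3 samples against 3 allow. In the NK gate, whose cells barely use Meis1, the thinned share was at most 0.550% in Txnip-KO and 0.491% in WT, with a median of 3721 UMIs per cell there and 9397 in the HSC gate before thinning. Over all UMIs the HSC shares overlapped, at 95.0%, 86.5% and 86.1% in Txnip-KO and 89.8%, 85.1% and 84.7% in WT. The thinned shares of Hoxb4 (4.16%, 4.10% and 3.61% in Txnip-KO, 2.29%, 2.40% and 2.8% in WT) and of Hoxb3 (1.92%, 1.32% and 1.62% in Txnip-KO, 0%, 0.962% and 0.623% in WT) also lay apart, and those of the other 6 genes overlapped. Of all features tested in this gate, 13.7% had thinned shares that lay apart with Txnip-KO above.

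In lymphoid-primed progenitors, gated on Flt3 and Dntt, 4 of 7 tested genes were higher in Txnip-KO and none lower by edgeR's test (35.9% of all features passed and 17.6% were higher). Hoxa5 had 14.2, 14.5 and 16.2 CPM in Txnip-KO, against 6.75, 8.06 and 6.99 in WT, a 2.07-fold difference (log2 1.05, SE 0.18, adjusted p = 0.000328). Hoxa10 had 10.4, 11.9 and 14.6 CPM in Txnip-KO, against 7.83, 4.94 and 5.71 in WT (log2 1.04, SE 0.22, adjusted p = 0.00150). Meis1 had 111, 91.4 and 78.7 CPM in Txnip-KO, against 64.2, 58.6 and 58.5 in WT (log2 0.61, SE 0.11, adjusted p = 0.000520). In all 3 genes the groups lay apart, as in 24.2% of all features in this gate with Txnip-KO above. Hoxb4 overlapped, with 25.8, 15.3 and 17.9 CPM in Txnip-KO and 16.1, 11.9 and 11.4 in WT. It was called at 0.53 (adjusted p = 0.0373) and lost the call in 9 alternatives, among them those without WT 2, WT 3 or Txnip-KO 1 (0.35, adjusted p = 0.148, in the last). Hoxa10 lost its call among cells called G1 (0.77, adjusted p = 0.0510) and in the gate's largest cluster, and Meis1 with thinned cells (0.38). Hoxa9 (0.21) and Hoxa7 (0.10) were not called, although this gate ranks next to HSC for Hoxa9 in WT. The gate itself differed between genotypes. Cells called S or G2M made up 21.9% to 37.6% in Txnip-KO, against 52.8% to 59.7% in WT. Cluster 5 held 31.8% to 34.7% of its Txnip-KO cells, against 22.8% to 26.0% of its WT cells.

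In early B-lineage progenitors none of 5 tested genes passed edgeR's test, where 20.2% of all features did and 9.12% were higher. Of the 5, 3 were at an unadjusted p under 0.05 and 0 were called by DESeq2's Wald test. Meis1 had 75.4, 77.6 and 83.9 CPM in Txnip-KO, against 66.7, 62.3 and 64.2 in WT, which lay apart but missed the threshold (log2 0.30, SE 0.14, adjusted p = 0.132). Hoxa7, whose WT level here was above that in HSC, had 61.7, 83.7 and 82.3 CPM in Txnip-KO, against 75.8, 70.8 and 70.3 in WT. Txnip-KO 1 had only 18 Hoxa7 UMIs in this gate, and its value lay below all 3 WT samples. The gate held 33, 132 and 67 cells in Txnip-KO, against 282, 308 and 355 in WT. Cluster 13 made up 30.3%, 68.2% and 50.7% of the gate in Txnip-KO, against 77.3%, 80.8% and 73.8% in WT. In the B cell and T cell gates too few UMIs were seen for a test of any of the 9 genes.

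In GMP, gated on myeloperoxidase and other granule genes, 4 of 5 tested genes were higher in Txnip-KO and none lower (31.2% of all features passed and 14.3% were higher), with Hoxb3 left out of this count. Meis1 had 83.7, 58.0 and 51.6 CPM in Txnip-KO, against 32.3, 39.5 and 38.2 in WT (log2 0.76, SE 0.14, adjusted p = 0.000366). Hoxb4 had 20.9, 17.4 and 17.7 CPM in Txnip-KO, against 9.26, 9.27 and 11.2 in WT (log2 0.90, SE 0.20, adjusted p = 0.00133). Hoxa9 had 59.2, 55.8 and 49.1 CPM in Txnip-KO, against 39.1, 39.7 and 41.0 in WT (log2 0.45, SE 0.12, adjusted p = 0.00541). The ranges of these 3 genes lay apart, as in 21.3% of all features in this gate with Txnip-KO above. The gate's share of cells called S or G2M was 54.3%, 70.7% and 70.1% in Txnip-KO, against 80.3%, 82.5% and 77.2% in WT. Hoxb3 had 8, 9 and 8 UMIs in Txnip-KO, against 3, 8 and 3 in WT. No WT sample reached the minimum of 3.02 CPM for it, so it passed the filter on low counts through Txnip-KO alone. Its call is therefore set aside and enters only counts over all gates, where it is named. Hoxa7 was called at 0.34 (adjusted p = 0.0157), lost that call in 8 alternatives, among them those without Txnip-KO 2, WT 2 or WT 3, and stood at -0.39 with thinned cells. The Hoxa9 call ended with Leiden clusters in place of gates (0.17, adjusted p = 0.0661), with thinned cells (0.13, adjusted p = 0.869) and with gates set on thinned cells (0.44, adjusted p = 0.0681). The Hoxb4 call ended among cells called G1 (0.79, adjusted p = 0.116) and with gates set on thinned cells (0.39, adjusted p = 0.395), and the Meis1 call with thinned cells (0.78, adjusted p = 0.205).

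In erythroid cells, gated on Klf1 and at least 4 erythroid markers, 6 of 7 tested genes were higher in Txnip-KO and none lower (31.7% of all features passed and 15.3% were higher). Hoxa7 stood out with 37.0, 32.0 and 25.3 CPM in Txnip-KO, against 14.8, 14.2 and 14.2 in WT. Its 3 WT samples were nearly the same and all 3 Txnip-KO samples were well above them, a 2.16-fold difference (log2 1.11, SE 0.14, adjusted p = 3.54e-05). The call held in all 17 alternatives, with values of 0.99 to 1.25. Hoxa9 had 42.3, 41.4 and 42.2 CPM in Txnip-KO, against 32.4, 31.9 and 32.8 in WT, with little spread in either group (log2 0.37, SE 0.09, adjusted p = 0.00581).

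The remaining erythroid calls were weaker. Meis1 had 111, 83.6 and 74.0 CPM in Txnip-KO, against 65.4, 59.7 and 61.2 in WT (log2 0.52, SE 0.13, adjusted p = 0.0103), and its call ended in 5 of 17 alternatives. These were Leiden clusters (0.48, adjusted p = 0.168), cells called G1 (0.33, adjusted p = 0.0612), thinned cells (adjusted p = 0.0691), 1 more marker (adjusted p = 0.0664) and leaving out WT 3 (adjusted p = 0.0515). Hoxa5 was called at 0.91 (adjusted p = 0.0160) and lost the call in 3 of 15 alternatives (without WT 1 or WT 3, and by DESeq2's Wald test). Hoxa10 was called at 0.87 (adjusted p = 0.0285) and lost it in 6 of 15, among them those without Txnip-KO 3, WT 1 or WT 2 and among cells called G1 (0.59, adjusted p = 0.340). Hoxb4 was called at 0.43 (adjusted p = 0.0346) and lost the call in 9 of 16, among them those without any one sample but Txnip-KO 3 and among cells called G1 (0.14, adjusted p = 0.733).

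Different clusters made up the erythroid gate in the genotypes. Cluster 9 held 73.1%, 76.2% and 69.9% of its Txnip-KO cells, against 0.879%, 2.52% and 2.16% of its WT cells, and cluster 11 held 1.30%, 3.14% and 2.14% in Txnip-KO, against 62.9%, 64.5% and 67.2% in WT. Both were led by Car1 and carried 8 of 12 erythroid markers. Cells called S or G2M made up 35.2%, 38.1% and 34.6% of the gate in Txnip-KO, against 67.0%, 66.8% and 64.5% in WT. Other clusters of the gate occurred in both genotypes. In cluster 7, which stayed unnamed and was led by Apoe, Hoxa7 had 64.3, 41.0 and 42.3 CPM in Txnip-KO, against 18.9, 30.8 and 25.2 in WT. In cluster 16, erythroid cells led by histone and division genes, it had 35.3, 28.6 and 7.92 CPM in Txnip-KO, against 12, 13 and 13.1 in WT, so that the groups overlapped through Txnip-KO 3.

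The balance of the neighbours Hoxa9 and Hoxa7 lay apart between genotypes in 3 gates, erythroid, conventional dendritic and plasmacytoid dendritic cells. It overlapped in all other gates with a Hoxa7 UMI in every sample. The ratio was not tested, and how often ratios of other gene pairs lie apart was not computed. With 3 samples against 3, an exact permutation test cannot go below p = 0.1 in any gate. There were 1.14, 1.30 and 1.67 Hoxa9 UMIs per Hoxa7 UMI in Txnip-KO erythroid cells, against 2.19, 2.24 and 2.31 in WT, with no overlap. In HSC the same ratio was 2.04, 1.76 and 2.09 in Txnip-KO and 1.56, 1.82 and 2.3 in WT, and in GMP it was 0.932, 0.860 and 0.729 against 0.759, 0.764 and 0.802, both overlapping. In conventional dendritic cells it lay the same way as in erythroid cells, at 0.429, 0.5 and 0.944 in Txnip-KO and 7.25, 1.55 and 2.6 in WT, but on as few as 4 Hoxa7 UMIs per sample. In plasmacytoid dendritic cells it lay the other way round, at 0.639, 0.771 and 0.888 in Txnip-KO and 0.629, 0.379 and 0.466 in WT. Txnip-KO 1 was close to WT 1 there.

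**Figure D3:**
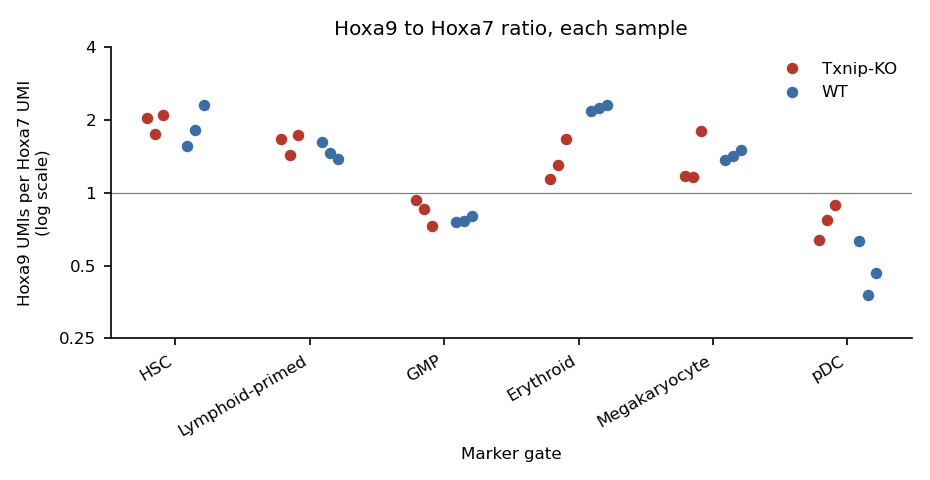
Hoxa9 UMIs per Hoxa7 UMI (log axis) in 6 gates, with each sample as a point and Txnip-KO left of WT. In erythroid cells the Txnip-KO points (1.14 to 1.67) lie below the WT points (2.19 to 2.31), and in plasmacytoid dendritic cells (pDC) the Txnip-KO points (0.639 to 0.888) lie above the WT points (0.379 to 0.629).

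In megakaryocyte cells, gated on Itga2b, 3 of 6 tested genes were higher in Txnip-KO and none lower (19.3% of all features passed and 8.55% were higher). Meis1 had 341, 286 and 265 CPM in Txnip-KO, against 231, 212 and 232 in WT (log2 0.40, SE 0.11, adjusted p = 0.0141). Hoxa9 had 46.6, 42.4 and 45.9 CPM in Txnip-KO, against 35.2, 28.3 and 34.4 in WT (log2 0.46, SE 0.14, adjusted p = 0.0285). Both genes had every Txnip-KO sample above every WT sample, as did 17.7% of all features in this gate. The Meis1 call, however, ended without any 1 of the 3 WT samples and the Hoxa9 call without any one sample but Txnip-KO 3. Hoxa7 was called at 0.60 (adjusted p = 0.0211) with overlapping samples, and lost the call without Txnip-KO 1, Txnip-KO 2, WT 2 or WT 3. Hoxb5 was too rare for the test here, with 12, 10 and 9 UMIs in Txnip-KO, against 2, 2 and 1 in WT. It was singled out after its values were seen. The share of megakaryocyte-gate cells called S or G2M was 47.9%, 60.5% and 54.3% in Txnip-KO, against 88.1%, 77.1% and 73.2% in WT.

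In basophil or mast cells, gated on the IgE receptor chain Ms4a2, 3 of 4 tested genes were higher in Txnip-KO and none lower (15.8% of all features passed and 7.5% were higher). The folds of Hoxa7, Hoxa9 and Meis1 were the largest among the gates in which each gene was tested. Hoxa7 had 24.8, 41.1 and 43.1 CPM in Txnip-KO, against 3.61, 6.98 and 11.8 in WT, a 4.47-fold difference (log2 2.16, SE 0.35, adjusted p = 0.000425). Hoxa9 had 27.3, 42.8 and 43.1 CPM in Txnip-KO, against 13, 9.31 and 5.88 in WT, a 3.81-fold difference (log2 1.93, SE 0.30, adjusted p = 0.000359). Meis1 had 69.2, 75.0 and 108 CPM in Txnip-KO, against 29.6, 31.4 and 36.6 in WT, a 2.52-fold difference (log2 1.33, SE 0.19, adjusted p = 0.000169). All 3 genes lay apart between genotypes, as did 16.9% of all features in this gate with Txnip-KO above. The 3 genes had 23 to 109 UMIs per Txnip-KO sample and 5 to 56 per WT sample. For Hoxa7, 1 WT sample reached the filter's minimum. Hoxb4, whose WT level in this gate was close to that in HSC, did not pass the test (log2 0.15, SE 0.26, adjusted p = 0.737).

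The makeup of this gate also differed between genotypes, though not in step with those values by sample. Cluster 24, led by Gzmb, Scin and Lmo4 and carrying Cpa3, held 6.64%, 5.81% and 22.1% of the gate's cells in Txnip-KO, against 2.23%, 1.71% and 2.88% in WT. Meis1 was at 185, 137 and 154 CPM in Txnip-KO and 109, 130.3 and 88.0 in WT there, and lay apart between genotypes. It was the highest there of the 3 largest clusters in every sample. These values rest on 53, 12 and 46 UMIs in 29, 10 and 36 Txnip-KO cells. In WT they rest on 13, 14 and 16 UMIs in 11, 11 and 17 cells. The share of all features that lay apart within single clusters was not computed. Cluster 4, which makes up most of the gate and is led by Lilr4b, Ccl6 and Cd200r3, held 79.9%, 75.6% and 54.6% of its cells in Txnip-KO, against 77.9%, 80.7% and 81.9% in WT. Within cluster 4, Meis1 was at 16.6, 9.56 and 6.67 CPM in Txnip-KO and at 16.1, 18.0 and 13.8 in WT, and the fitted difference was -0.28 and not called (adjusted p = 0.795). Hoxa9 in cluster 4 was at 9.71, 9.56 and 6.67 CPM in Txnip-KO and 1.24, 0 and 0 in WT, which lay apart on at most 7 UMIs per sample. In cluster 17, led by Prss34, Mcpt8 and Fcer1a, Hoxa7 was at 33.7, 85.8 and 20.4 CPM in Txnip-KO, against 2.40, 6.44 and 17 in WT. It also lay apart, on only 8, 9 and 3 UMIs in Txnip-KO and 1, 3 and 6 in WT, while Hoxa9 and Meis1 overlapped. Within cluster 24, Hoxa7 overlapped, at 59.5, 79.7 and 60.1 CPM in Txnip-KO and 8.39, 65.1 and 33.0 in WT. Within cluster 24, Hoxa9 was at 62.9, 34.1 and 63.5 CPM in Txnip-KO and 42, 37.2 and 33.0 in WT, from 3 to 19 UMIs per sample, and Txnip-KO 2 lay among the WT samples. The part of the changed makeup in the gate's rises was not tested further.

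**Figure D4:**
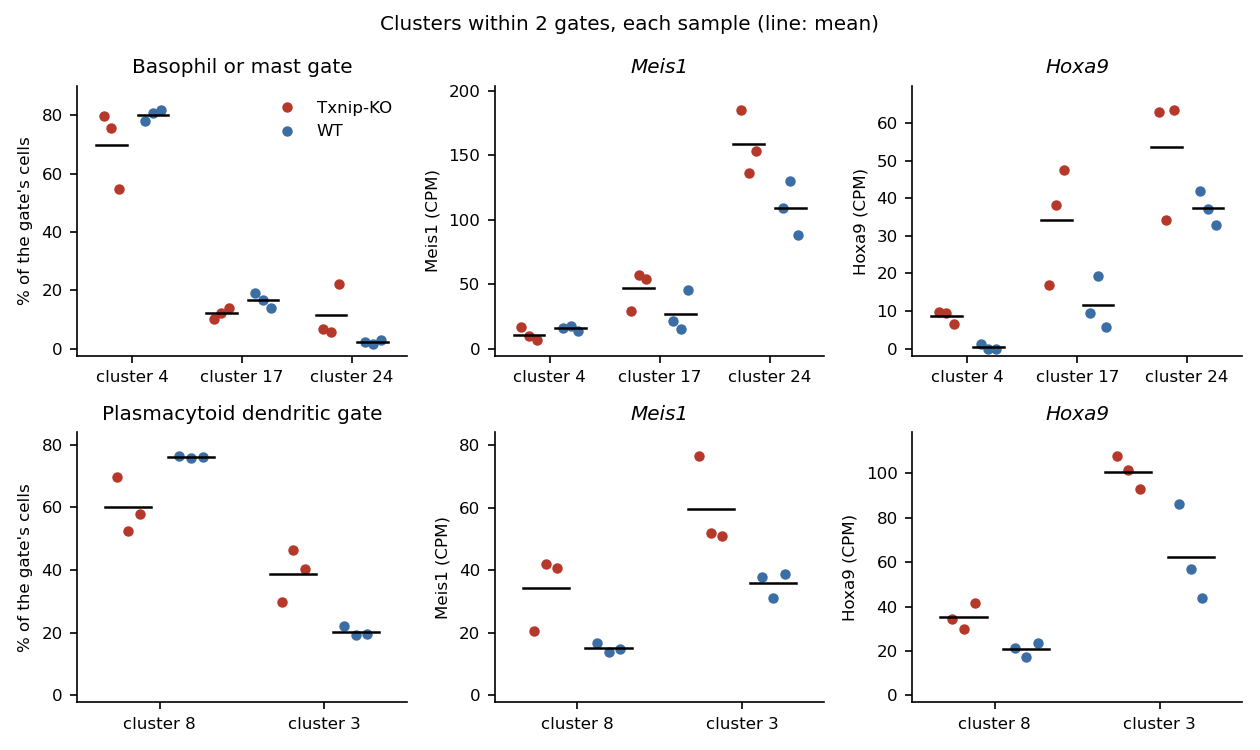
Share of the gate's cells (left) and CPM of Meis1 (middle) and Hoxa9 (right) by cluster within the basophil or mast gate (top) and the plasmacytoid dendritic gate (bottom), with each sample as a point, Txnip-KO left of WT, and a line at the mean. In basophil cluster 4 the Meis1 points of Txnip-KO (6.67 to 16.6) reach below those of WT (13.8 to 18.0), and in plasmacytoid dendritic cluster 3 the Hoxa9 points of Txnip-KO (93.1 to 108) lie above those of WT (43.8 to 86.2).

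Plasmacytoid dendritic cells, gated on Siglech, had all 5 tested genes higher in Txnip-KO (36.4% of all features passed and 18.7% were higher). Hoxa9 had 59.2, 71.6 and 68.1 CPM in Txnip-KO, against 40.2, 29.1 and 32.1 in WT, a 2.01-fold difference (SE 0.14 on the log2 scale, adjusted p = 1.49e-05). Meis1 had 39.6, 47.9 and 46.5 CPM in Txnip-KO, against 22.6, 19.1 and 21.7 in WT, a 2.14-fold difference (SE 0.15 on the log2 scale, adjusted p = 1.45e-05). Hoxa5 had 18.9, 8.89 and 17.1 CPM in Txnip-KO, against 5.75, 7.15 and 5.91 in WT (log2 1.23, SE 0.28, adjusted p = 0.00191). These 3 genes lay apart between genotypes, as did 24.3% of all features in this gate with Txnip-KO above. Txnip-KO 2 came near to WT for Hoxa5. Hoxb4 was called at 0.71 (adjusted p = 0.0112) and lost the call in 9 of 18 alternatives. Among these were those without Txnip-KO 1 or WT 3 and with Leiden clusters (0.09). Hoxa7, called at 0.31 (adjusted p = 0.0448) with overlapping samples, lost the call in 15 of 19 alternatives, the one sample it could lose being Txnip-KO 3. Hoxb3, too rare for the test, had 6, 10 and 8 UMIs in Txnip-KO, against 1, 2 and 1 in WT.

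In this gate too the makeup differed. Cluster 3, led by Dntt and named as lymphoid-primed, held 29.8%, 46.4% and 40.4% of the gate's cells in Txnip-KO, against 22.0%, 19.2% and 19.6% in WT. Within it Hoxa9 was at 108, 102 and 93.1 CPM in Txnip-KO and 86.2, 56.8 and 43.8 in WT. In cluster 8, the larger and named as plasmacytoid dendritic, Hoxa9 was at 34.4, 29.9 and 41.5 CPM in Txnip-KO, against 21.2, 17.4 and 23.6 in WT. Meis1 was at 20.4, 42.1 and 40.6 CPM in Txnip-KO there, against 16.8, 13.9 and 14.8 in WT. Both genes lay apart between genotypes within each of these clusters. The share of all features that did so was not computed by cluster, and was 24.3% in the whole gate with Txnip-KO above. The part of the makeup in the gate's rises was not tested.

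Conventional dendritic cells gave the single call in the other direction. Hoxa9 had 4.21, 8.16 and 10.9 CPM in Txnip-KO, against 30.4, 10.3 and 19.6 in WT, from 6, 7 and 17 UMIs against 29, 17 and 26. Txnip-KO 3 overlapped with WT 2, and the fitted value was -1.27 (SE 0.41, adjusted p = 0.0383), where 17.6% of all features passed and 8.33% were higher and 9.3% lower. That call ended in 7 of 13 alternatives, among them those without Txnip-KO 1 (-0.94, adjusted p = 0.170), Txnip-KO 2 (-1.30), WT 1 (-0.91) or WT 3 (-1.25), and without doublet removal (-0.81). Hoxa7 in the same gate had 9.82, 16.3 and 11.5 CPM in Txnip-KO, against 4.19, 6.66 and 7.52 in WT, apart but not called (log2 0.93, SE 0.39, adjusted p = 0.0951).

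In NK cells 2 of 3 tested genes were higher in Txnip-KO and none lower (27.3% of all features passed and 13.3% were higher). Hoxb3 had 8.06, 4.45 and 7.08 CPM in Txnip-KO, against 4.11, 3.60 and 2.24 in WT (log2 0.99, SE 0.33, adjusted p = 0.0253), and lost the call in 6 of 17 alternatives, among them those without Txnip-KO 1, WT 2 or WT 3 and in the gate's largest cluster (0.89, adjusted p = 0.0998). Hoxb4 was called at 0.57 (adjusted p = 0.0266) with overlapping samples and lost the call in 8 of 19, among them those without any one sample but Txnip-KO 2. DESeq2's Wald test called neither gene. The makeup of the gate differed too. Cluster 1, led by Ms4a4b and Xcl1, held 45.8%, 49.6% and 56.4% of its cells in Txnip-KO, against 77.5%, 72.0% and 70.5% in WT, and cluster 6, led by Gzma and Prf1, held 49.8%, 39.8% and 36.5% in Txnip-KO, against 16.5%, 23.7% and 25.1% in WT. The part of this makeup in the NK calls was not tested beyond the largest cluster. Hoxa7 had 5, 8 and 18 UMIs in Txnip-KO NK cells, against 2, 0 and 4 in WT, and Hoxa9 had 6, 4 and 18 against 2, 0 and 3. Both were too rare for the test within the gate. In innate lymphoid cells and in monocytes none of 4 tested genes passed edgeR's test, where 3.85% and 8.82% of all features did and 1.86% and 4.11% were higher. At an unadjusted p under 0.05 there was 1 gene in innate lymphoid cells and 0 in monocytes, and DESeq2's Wald test called 0 in either gate. Hoxb4 in innate lymphoid cells had 29.0, 13.7 and 22.0 CPM in Txnip-KO, against 11.5, 7.46 and 9.66 in WT, and it passed the filter on low counts through Txnip-KO alone.

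Counted over the 14 gates, 64 of 126 pairs of gene and gate had enough UMIs for a test, 32 of these were higher in Txnip-KO and 1 lower, where 23.2% of all 119775 such tests passed in either direction and 11.1% were higher. DESeq2's Wald test called 20 pairs, and with every cell thinned to 1000 UMIs 4 were called. Pairs that passed the filter on low counts do not stand for all pairs. Of the 64, 2 passed it through Txnip-KO alone, Hoxb3 in GMP and Hoxb4 in innate lymphoid cells, and without them 31 of 62 were higher. With both included, Meis1 was higher in 7 of its 12 tested gates, Hoxb4 in 6 of 12, Hoxa7 in 5 of 11, Hoxa9 in 5 of 11 and lower in 1, Hoxa5 in 4 of 7, Hoxb3 in 3 of 5 and Hoxa10 in 2 of 4. The Hoxb3 count thus includes the GMP call set aside above. Hoxb2 and Hoxb5 could be tested in the HSC gate alone and were not called there.

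**Figure D5:**
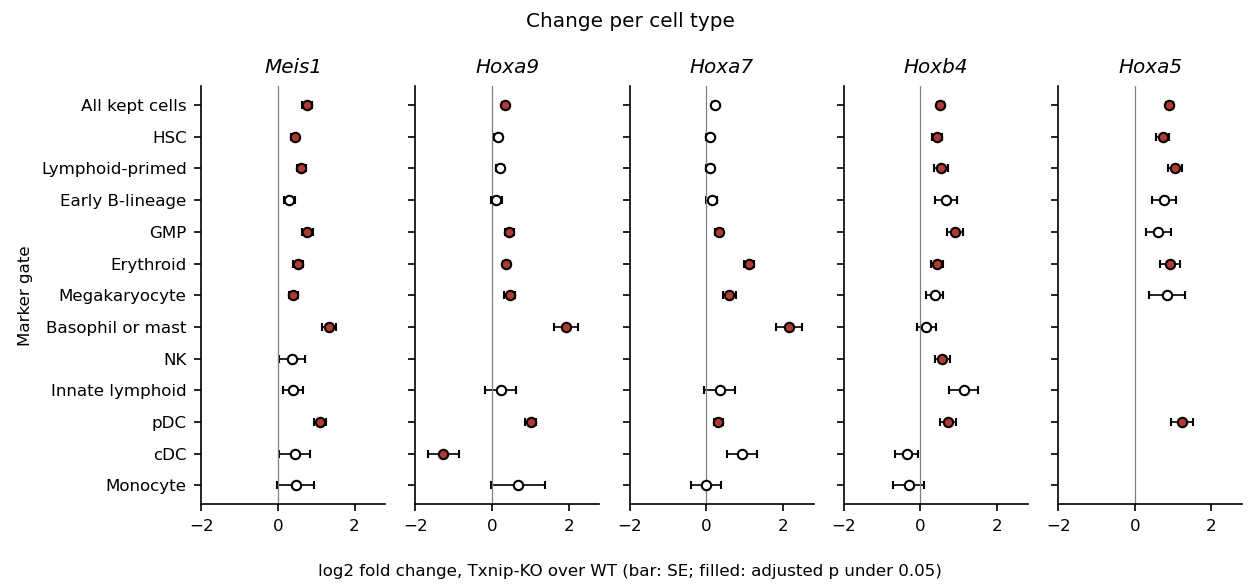
Log2 fold change (Txnip-KO over WT) with its standard error for Meis1, Hoxa9, Hoxa7, Hoxb4 and Hoxa5 (panels) in all kept cells and each gate where the gene was tested (rows), with filled points at an adjusted p under 0.05 (edgeR). Hoxa9 in conventional dendritic cells (cDC, -1.27) is the one filled point below 0, and the basophil or mast values of Hoxa7 (2.16), Hoxa9 (1.93) and Meis1 (1.33) are the largest for those genes.

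Whether the genotype effect differed from that in HSC was tested for each gate as a gate-by-genotype interaction, blocked by sample. In basophil or mast cells the effect was larger than in HSC by 1.93 for Hoxa7 (SE 0.32, adjusted p = 3.66e-06), by 1.63 for Hoxa9 (SE 0.35, adjusted p = 0.000457) and by 0.74 for Meis1 (SE 0.25, adjusted p = 0.0305), where 18.1% of 11636 features differed. In erythroid cells Hoxa7 differed by 0.98 (SE 0.17, adjusted p = 0.000179), in a comparison where 0.971% of features did. In plasmacytoid dendritic cells Hoxa9 differed by 0.78 (SE 0.20, adjusted p = 0.00692) and the rare Hoxb3 by 2.54 (SE 0.73, adjusted p = 0.0173), where 6.96% did. In NK cells Hoxa7 differed by 2.12 (SE 0.60, adjusted p = 0.0383; 1.77% of features), and in conventional dendritic cells Hoxa9 by -1.45 (SE 0.41, adjusted p = 0.0438; 1.76%). Left out in turn, no single sample ended the calls of Hoxa7 in erythroid cells (0.95 to 1.05) or of Hoxa7 (1.6 to 2.44) and Hoxa9 (1.30 to 1.99) in basophil or mast cells. Meis1 in basophil or mast cells lost the call without any one sample but Txnip-KO 1 (lowest 0.45 without Txnip-KO 3, adjusted p = 0.187). Hoxa7 in NK cells also kept it only without Txnip-KO 1, with 1.51 (adjusted p = 0.376) without Txnip-KO 3. Hoxa9 in conventional dendritic cells lost the call without Txnip-KO 1 (-0.98), Txnip-KO 2, WT 1 or WT 3. In plasmacytoid dendritic cells Hoxa9 lost it without Txnip-KO 2, WT 2 or WT 3 (lowest 0.67) and Hoxb3 without Txnip-KO 2 or any one WT sample (lowest 2.33). The controls are shared by these comparisons, and gates of one sample share its library. Hoxa7 in NK cells and Hoxb3 in plasmacytoid dendritic cells were too rare for a test within their own gates. They entered this fit because the filter on low counts was set over all gates together, where other gates let them pass.

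Pbx2 and Pbx3 were also higher in Txnip-KO over all cells. Pbx2 had a mean of 34.8 ± 1.6 CPM in Txnip-KO and 25.9 ± 0.0527 in WT (log2 0.43, SE 0.064, adjusted p = 0.00160 by edgeR), and it was called higher in 4 of the 12 gates where it was tested. Pbx3 had a mean of 16.2 ± 1.63 CPM in Txnip-KO and 9.81 ± 0.681 in WT (log2 0.72, SE 0.099, adjusted p = 0.00120 by edgeR), and it was called higher in 5 of the 10 gates where it was tested. Neither was called lower in any of those gates, and over all gates and features 11.1% of tests were higher. In HSC Pbx2 and Pbx3 were at 0.41 (adjusted p = 0.0118) and 0.54 (adjusted p = 0.0160). Of 11 TALE partner genes, 9 were tested over all cells and 5 were higher, with a median of 0.35, where 21.5% of all features were higher. In HSC 5 of 8 were higher, with a median of 0.34, against 14.6% of all features. The corepressor gene Tgif1 (0.47 over all cells) and the Pbx-binding Pbxip1 (0.57 in HSC) were among them.

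Of 31 other Hox genes, 5 had enough UMIs over all cells and 4 were higher: Hoxa3 (0.87), Hoxa2 (1.42), Hoxa6 (1.11) and Hoxb6 (1.23), where 21.5% of all features were higher. In HSC 2 of 3 were higher, Hoxa3 (0.61) and Hoxa6 (1.21), against 14.6% of all features. Of 5 antisense or host RNAs of the clusters, 3 of 4 tested were higher over all cells, Hoxb3os (1.47), Hoxb5os (1.69) and Hotairm1 (1.06), beside the same 21.5%. Hoxb3os had 12.1 ± 2.02 CPM in Txnip-KO HSC and 6.01 ± 1.91 in WT (1.04, adjusted p = 0.00118), beside the rise of the overlapping Hoxb3.

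The regulators that keep Hox genes on or off did not move one way. Of all features, 40.8% passed over all cells and 21.5% were higher, and in HSC 30.3% and 14.6%. Of 20 trithorax-side genes, which maintain Hox expression, 8 were higher and 3 lower over all cells (median 0.05) and 6 and 3 in HSC (median 0.11). The histone methyltransferase gene Ash1l rose in HSC (0.61, SE 0.09, adjusted p = 4.14e-05), as did Aff4 (0.48), a subunit of the super elongation complex, while Dpy30 (-0.45) and Psip1 (-0.45) fell. Of 25 Polycomb-side genes, which silence Hox genes, 6 were higher and 6 lower over all cells (median 0.02) and 6 and 3 in HSC (median 0.10). Jarid2 (0.46), Cbx6 (0.43) and Cbx7 (0.79) rose in HSC and Rbbp7 fell (-0.41). The 3 caudal factor genes, which switch on Hox genes in the embryo, were too rare for a test in any gate.

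Of 20 genes reported downstream of HOXA9 or MEIS1 in blood cells, 7 were higher and 1 lower over all cells (median 0.19), and in HSC 8 of 18 were higher and 1 lower (median 0.20). Of all features, 40.8% passed in either direction over all cells, near the share of this list, and 21.5% were higher. In HSC these were 30.3% and 14.6%. Igf1r, the receptor for insulin-like growth factor 1, had 153 ± 7.83 CPM in Txnip-KO HSC and 88.9 ± 6.66 in WT (log2 0.78, SE 0.09, adjusted p = 1.30e-06). Sox4 (0.42) and Camk2d (0.51) rose in HSC as well. Hif1a, a hypoxia factor that MEIS1 is reported to switch on in stem cells, fell to 26.6 ± 2.35 CPM in Txnip-KO HSC, against 42.1 ± 3.15 in WT (log2 -0.66, SE 0.12, adjusted p = 0.000195). Its direction was thus opposite to that of Meis1 in the same cells, and the median of all features in HSC was 0.01.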

How the data were processed

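UMI counts per gene and cell were deposited by the authors as 1 matrix per sample, made with the Chromium Single Cell 3' V3.1 kit per the labels' protocols, and the submitters' processing notes name CASAVA 1.8, Cell Ranger 6.1.1 and Seurat 2.3.4. Which build and annotation the reads were counted on is not given in the sources, and 31107 of 31253 gene IDs were found in GENCODE M21 (GRCm38), the source of the coordinates and sequences. Barcodes with at least 500 genes and 1000 UMIs and at most 10% mitochondrial UMIs were kept, and per sample the highest Scrublet scores were removed as doublets (0.8% per 1000 barcodes), with scanpy 1.11.5 in Python 3.11.15. Of 48277 barcodes, 44399 passed the filter and 41513 remained after doublet removal. Cell types were marker gates, and 3067 cells in more than 1 gate were left out. Clusters (31, of which 27 were named) came from Leiden grouping without the Hox, Meis and Pbx genes.

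Counts were summed per sample and gate and tested with edgeR 4.0.16 in R 4.3.3 (filterByExpr, TMM, robust quasi-likelihood, Benjamini-Hochberg over all features of a gate at 0.05), for gates with at least 20 cells in every sample. The interaction with gate and the order of gates in WT were fitted over all 14 gates with the sample as a block. Shares of cells were tested with exact permutation tests. DESeq2 1.42.0 and the settings of the closing section were alternatives. On simulated counts, 100 genes changed by 1 on the log2 scale and 100 by 2 were tested: over all cells 89 and 99 were recovered among 14648 genes, and in the HSC gate 92 and 99 among 11166. TMM moved log2 fold changes by -0.10 over all cells and -0.091 in the HSC gate relative to plain CPM, and DESeq2's size factors moved their median by at most 0.026 more. The members, gene lists and gates were chosen with earlier results of these data known, and the gate thresholds were set after the data were seen. All 9 members are named, and of each gene list at most the 4 called genes with the smallest p over all cells and in HSC, without predicted genes, with Pbx2 and Pbx3 always. 1 further gene of the lists and some coding sequences are not reported here.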

Additional observations from a re-analysis of the deposited data

Results flagged for a closer look

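For 8 pairs of gene and gate, the change in Txnip-KO relative to WT differed from that in the HSC gate. The test was the interaction of gate and genotype by edgeR, at an adjusted p under 0.05. Of all 11636 features tested, 18.1% differed in this way in basophil or mast cells and 6.96% in plasmacytoid dendritic cells. The shares in NK, conventional dendritic and erythroid cells were 1.77%, 1.76% and 0.971%. In basophil or mast cells the differences on the log2 scale were 1.93 for Hoxa7, 1.63 for Hoxa9 and 0.74 for Meis1. In erythroid cells Hoxa7 differed by 0.98. In NK cells Hoxa7 differed by 2.12, from at most 18 UMIs per sample. This pair, and Hoxb3 in plasmacytoid dendritic cells, had too few UMIs for a test within the gate. Both passed the filter on low counts through other gates. In plasmacytoid dendritic cells the differences were 0.78 for Hoxa9 and 2.54 for Hoxb3, and in conventional dendritic cells Hoxa9 differed by -1.45. With any single sample left out, the calls of Hoxa7 and Hoxa9 in basophil or mast cells and of Hoxa7 in erythroid cells held, and each of the other 5 ended without at least 1 sample.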

How the results depend on the processing

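The count of genes called over all kept cells (8) was 7 to 9 in 15 alternatives. Over the 14 gates 33 pairs were called, Hoxb3 in GMP among them. DESeq2's Wald test called 20, and 18 were called among cells called G1. In the largest cluster of each gate 18 were called, with too few WT cells there for an erythroid fit. With cells thinned to 1000 UMIs 4 were called, and 2 with gates set on thinned cells, which left too few HSC for a fit. With 1 sample left out 21 to 34 were called (21 without WT 3). In HSC 4 genes were called, against 1 with cells thinned to 1000 UMIs, 2 with gates set at 4000 UMIs and 2 to 5 with 1 sample left out (2 without Txnip-KO 1). The 8 differences between gates were 7 with Leiden clusters, which were partly other pairs. They were 3 to 10 with 1 sample left out (3 without Txnip-KO 2 or WT 3, 4 without WT 1 or WT 2). Leiden clusters kept only Hoxa7 and Hoxa9 in basophil or mast cells and Hoxa7 in erythroid cells. The other calls there were Hoxa10 in basophil or mast cells, Hoxa7 and Hoxb4 in monocytes and Hoxb4 in T cells. Meis1 in basophil or mast cells (0.59), Hoxa7 in NK cells (1.54) and Hoxa9 (0.35) and Hoxb3 (1.39) in plasmacytoid dendritic cells were not called. No cluster was named conventional dendritic. Shares of cells lay apart for 3 genes when thinned and for 0 over all UMIs. Values of the opposite sign were -0.22 for Hoxb2 over all cells (same number of cells of each gate), -0.14 for Hoxa7 in HSC and -0.39 in GMP (thinned), -0.28 for Meis1 in basophil or mast cells (largest cluster), and, for Hoxa10 in HSC, -0.0033 to 0.22 with 1 sample left out (lowest without Txnip-KO 1), -0.33 thinned, -0.010 with 1 more marker and -0.015 with gates at 4000 UMIs. The cause of these shifts was not tested, but thinning leaves fewer UMIs to test. Over all cells the deviations of same-numbered samples correlated at 0.064 to 0.104, and those of the other pairs at -0.100 to 0.0044, so every sample correlated best with its own number, a hint from the data and not the design. Not every pair was over 0.1, and in HSC the same did not hold (0.0013 to 0.018), so the numbers were not taken to pair the samples. With the replicate block 34 pairs, 4 genes in HSC and 9 over all cells were called, Hoxa7 among the last (adjusted p = 0.0441). The gates at 4000 UMIs, the largest cluster of each gate, the shares over all UMIs and the left-out samples of the differences between gates were chosen after seeing the data.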

Other observations

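The gates with too few cells for a comparison also held UMIs of these genes, summed here over all 6 samples. The 55 cells of the stromal gate, led by Cxcl12, Lpl and Igfbp5, had 26 Hoxa9 UMIs (104 CPM), 24 Hoxa10 UMIs (95.5 CPM), 23 Meis1 UMIs (91.6 CPM) and no Hoxb5 UMI. Only 3, 5 and 1 of these cells were in WT 1, 2 and 3, with 0, 3 and 0 Hoxa10 UMIs. The 538 cells of the neutrophil gate had 110 Meis1 UMIs (46.9 CPM), 55 Hoxb4 UMIs (23.5 CPM) and 52 Hoxa9 UMIs (22.2 CPM). Most came from Txnip-KO 1 and 3. Meis1 had 67, 0 and 40 UMIs in 297, 19 and 126 cells of Txnip-KO 1, 2 and 3. In WT 1, 2 and 3 it had 0, 1 and 2 UMIs in 29, 42 and 25 cells. The 28 cells of the plasma cell gate, all in Txnip-KO 2, had 5 Meis1 UMIs (10.1 CPM) and none of Hoxa5, Hoxb2, Hoxb3 or Hoxb5.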
